A study of Mus musculus with 12 samples.

Results

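The comparison described here is that of late with early passage in parthenogenetic haploid embryonic stem cells (phESCs), mouse stem cell lines derived from activated eggs, whose single genome is of maternal origin. Its members are the cytosines of autosomes 1 to 19 that had a methylation value in both phESC libraries, 2524121 of the 8119606 cytosines listed for the series. DNA methylation was measured in 12 mouse libraries by RRBS (reduced representation bisulfite sequencing), in which size-selected fragments cut by MspI sample the CpG-rich share of the genome. The late phESC library and the early phESC library, both labelled wild type (WT), were each 1 sample of genomic DNA. Also used were WT androgenetic haploid ESCs (ahESCs, with a paternal genome) and WT diploid ESCs, each late and early. Embryos at E15.5 (WT, bimaternal and bipaternal), a bimaternal brain at E19.5 and adult brains (WT and bimaternal) also served to choose sites. The bimaternal and bipaternal samples had deletions of differentially methylated regions. The labels give no passage numbers, strain, line or sort for haploid cells, so it is unknown whether the late and early cells were of the same line or what share of them was still haploid.

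Methylation of the cytosine in a CpG is copied to the new strand after replication by Dnmt1 with Uhrf1, placed on unmethylated DNA by Dnmt3a and Dnmt3b, and removed by way of Tet enzymes. Mouse ESCs, haploid ones included, are known to lose methylation in culture, depending on the medium. Imprinted control regions are methylated on the copy from 1 parent, which keeps certain genes silent on that copy, and haploid ESCs that have lost these marks have been used with targeted deletions to make embryos with parents of the same sex.

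With 1 library per group there was no replicate error and no test, and every comparison below sets the values of single libraries side by side. The read depth behind a value is unknown, because the deposited percentages come without coverage. The late library had values at 3692896 autosomal cytosines and the early library at 4337808, of which the shared cytosines were 68.4% in the late and 58.2% in the early library. The late library held few CCGG sites, the recognition site of MspI, at 2.47% of its exonic CpG cytosines against 15.4% in the early library, so CpGs in CCGG were left out of the exonic means. Strand agreement gives a measure of noise. At 38557 CpGs read on both strands the median absolute difference between strands was 4.77 points in the late library and 3.06 points in the early library. Cytosines of the GC dinucleotide outside CpG, which are little methylated in most cells, had 0.392% in the late and 0.458% in the early library. Chromosome Y, which a genome from an egg lacks, had values at 654 cytosines in the late and 97 in the early library, and its unplaced sequence at 2348 in the late and 0 in the early library. Values on the unplaced sequence were found in 3 other libraries, late ahESCs (4124), the WT adult brain (7697) and the bimaternal adult brain (2209), which has no paternal genome. On chromosome Y itself late ahESCs had 1161 and the bimaternal adult brain 890 cytosines with a value. The part of this signal in the results below was not tested.

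The sequences below are those around the start of 3 genes whose promoters stood furthest apart over many cytosines (Tmem267, higher in late cells, and Fv1 and Clcn4, lower). They run from 250 bases before to 50 bases after the RefSeq start in build GRCm38.p6, on the strand of the gene, and capitals mark the CpGs that had a value in both phESC libraries. They lie at chr13:119488223-119488522 (+) for Tmem267, chr4:147868729-147869028 (+) for Fv1 and chr7:7299508-7299807 (-) for Clcn4.
Tmem267: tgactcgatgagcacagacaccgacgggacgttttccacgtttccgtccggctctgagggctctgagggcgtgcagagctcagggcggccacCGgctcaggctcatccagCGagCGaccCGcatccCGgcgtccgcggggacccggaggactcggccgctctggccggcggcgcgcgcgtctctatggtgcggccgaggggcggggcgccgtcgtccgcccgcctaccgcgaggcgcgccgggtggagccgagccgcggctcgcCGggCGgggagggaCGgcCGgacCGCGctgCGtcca
Fv1: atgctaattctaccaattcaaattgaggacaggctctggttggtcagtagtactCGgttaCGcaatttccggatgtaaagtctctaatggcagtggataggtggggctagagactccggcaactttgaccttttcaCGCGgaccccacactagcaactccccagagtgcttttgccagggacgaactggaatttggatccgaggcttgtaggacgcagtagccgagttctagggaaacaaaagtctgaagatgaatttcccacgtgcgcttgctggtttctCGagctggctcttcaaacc
Clcn4: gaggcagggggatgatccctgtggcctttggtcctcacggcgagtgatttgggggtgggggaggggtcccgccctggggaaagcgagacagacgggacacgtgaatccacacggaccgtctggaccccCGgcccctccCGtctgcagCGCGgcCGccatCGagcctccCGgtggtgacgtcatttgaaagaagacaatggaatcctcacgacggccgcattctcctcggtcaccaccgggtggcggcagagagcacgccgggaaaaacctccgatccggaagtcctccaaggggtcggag
The Tmem267 stretch holds 50 CpGs of which 12 were measured, the Clcn4 stretch 27 of which 7 were measured, and the Fv1 stretch 13 of which 5 were measured. The measured CpGs of Tmem267 lie in a group before the start and a group just after it, and those of Clcn4 in a single run of capitals before the start.

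Late phESCs had less methylation than early phESCs across the genome, by a small margin. Over 347097 exonic CpGs, found by matching exon sequences to the listed positions and each the mean of the strands read, the mean was 4.40% in late and 5.26% in early cells, a difference of -0.86 percentage points. Most of these CpGs are unmethylated in every library. Among the 60041 that reached 20% in 1 or more of the 10 other libraries, the mean was 22.6% in late and 26.6% in early cells, a difference of -4.00 points, so that the late level was 85.0% of the early one. At these CpGs, 63.5% were lower in the late library and 35.6% higher. The 287056 exonic CpGs that stayed under 20% elsewhere had 0.594% in late and 0.793% in early cells.

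Among the 60041 CpGs that reached 20% elsewhere, the difference lay at the upper end of the distribution. CpGs at 60% or more made up 3.66% of them in late and 8.51% in early cells, while those under 5% made up 22.4% in late and 22.1% in early cells. CpGs between 20 and 40% held the larger share in late cells (28.6% against 24.5% in early cells). The ratio of late to early level depended on how CpGs were ordered. When all exonic CpGs were ordered by their level in the early diploid library, which is outside the pair, late phESCs had between 81.8% and 86.8% of the early phESC level in every bin. CpGs at 80 to 90% in early diploid cells stood at 41.5% in late and 50.2% in early phESCs, and those at 20 to 40% stood at 12.1% in late and 13.9% in early phESCs. When they were ordered by the WT embryo instead, the late level was 72.8% of the early one at CpGs under 5% in the embryo, 75.5% at those from 5 to 20%, and 87.6% at those from 90 to 100%. The difference was negative on all 19 autosomes, from -2.36 points on chromosome 7 to -5.90 points on chromosome 16 (mean -4.30, SD 0.975 over chromosomes, which share the libraries and are not replicates).

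In points, the gap was widest far from placed starts. Exonic CpGs more than 50 kb from any placed gene start (one whose sequence was matched to the listed positions) had 27.6% in late and 35.1% in early cells, and those 2 to 10 kb away had 22.5% in late and 24.5% in early cells. Over all cytosines that reached 20%, exonic or not, those more than 50 kb away had 29.9% in late and 38.8% in early cells, a difference of -8.82 points. Within 500 bp of a start they had 10.8% in late and 12.3% in early cells, a difference of -1.56 points. The late level was 77.2% of the early level in the far class and 87.4% within 500 bp. Exonic CpGs within 500 bp of a start differed from this, with 11.1% in late and 14.7% in early cells, a late level at 75.7% of the early one.

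Against the other stem cell pairs the phESC difference was small, and early phESCs were already low. At 54416 exonic CpGs that reached 20% in an embryo or brain library and had a value in all 6 stem cell libraries, phESCs had 23.1% late and 26.9% early, ahESCs had 23.8% late and 48.7% early, and diploid cells had 18.0% late and 49.3% early. The late minus early differences were -3.86 points in phESCs, -24.8 points in ahESCs and -31.3 points in diploid cells. The late phESC level was 85.7% of the early one, against 49.0% in ahESCs and 36.6% in diploid cells. These 3 differences come from 6 separate libraries, and the difference between cell types was not tested.

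**Figure D1:**
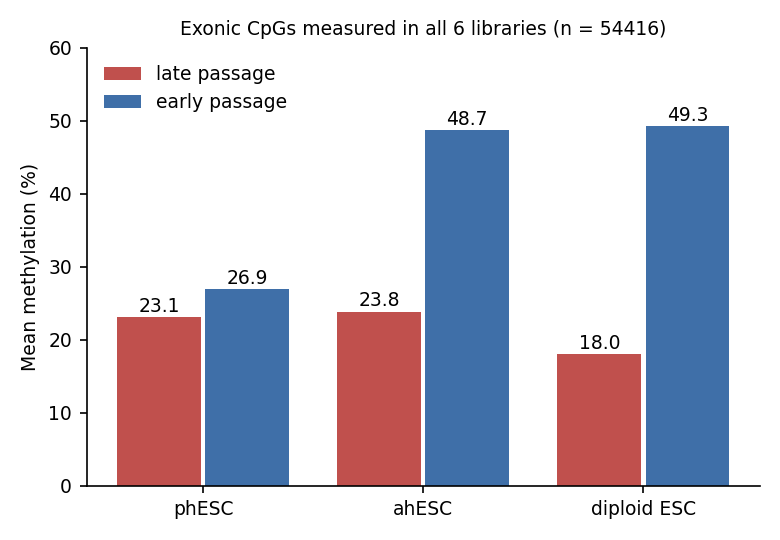
Mean methylation (%, vertical axis) of the same 54416 exonic CpGs, which reached 20% in an embryo or brain library, in late (red, left) and early (blue, right) libraries of phESCs, ahESCs and diploid ESCs, 1 library per bar and no error bars. The late phESC bar is at 23.1% and the early phESC bar at 26.9%, while the early ahESC and early diploid bars stand at 48.7% and 49.3%.

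In tiles of 1 kb, 1250 of 35541 tiles with at least 3 shared cytosines that reached 20% were lower in late phESCs by at least 25 points (3.52%), and 95 were higher by as much (0.267%). The tile means were 27.6% in late and 33.9% in early cells with a median difference of -5.65 points, and 74.3% of tiles were lower by any amount. In tiles of exonic CpGs alone, 149 of 23300 were lower (0.639%) and 17 were higher (0.073%). Highly methylated tiles were fewer in late cells, with 1160 tiles at 60% or more in late and 3461 in early cells, of which 933 were at that level in both. Of the 1250 lower tiles 46 had their centre within 2 kb of a placed start (3.68%), as did 3 of the 95 higher tiles (3.16%), against 11.2% of all tiles. Only the 23111 tiles at 25% or more in early cells could fall by 25 points. Cytosines within 500 bp of a start averaged 12.3% in early cells, so the shares of lower tiles were not matched in level.

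**Figure D2:**
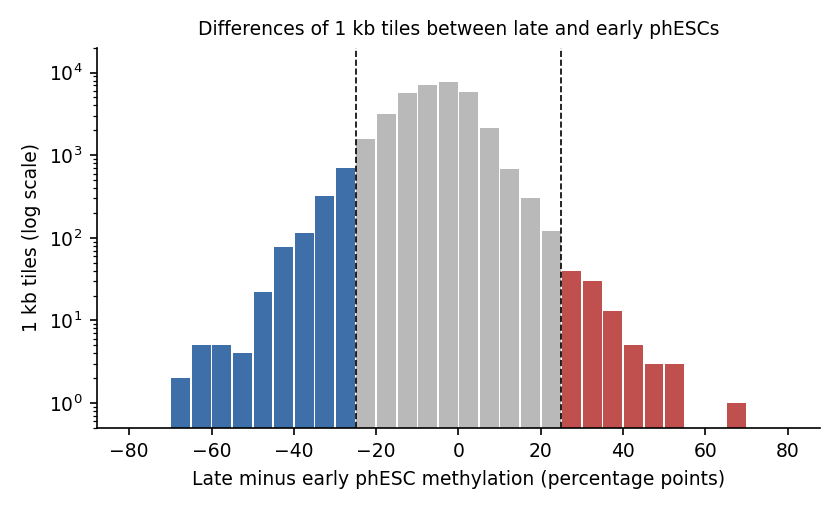
Number of 1 kb tiles (vertical axis, log scale) by the late minus early phESC difference in percentage points (horizontal axis, bins of 5 points), with dashed lines at 25 points either way. The 1250 tiles left of the lower line (blue) outnumber the 95 right of the upper line (red), and the tallest grey bars lie below 0.

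A tile value from a single strand was repeated by the other strand in direction more often than in size. Of 5455 tiles with enough CpGs read on both strands, 105 were lower by 25 points on the plus strand, of which 104 were lower by any amount and 36 by 25 points on the minus strand. Of 16 tiles higher on the plus strand, 15 were higher by any amount and 5 by 25 points on the minus strand. The SD of the difference between the strands' tile values was 7.54 points. Strands of a fragment come from the same DNA, so this spread holds no difference between cultures.

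The largest exonic tile differences lay in genes of several kinds. A tile in Gm33699 (chr9:60899001-60900000, mm9) had 3.85% in late and 57.6% in early cells, and a tile in Ssbp3, which encodes a single-stranded DNA binding protein, had 14.6% in late and 62.1% in early cells. Tiles in Celf2, an RNA-binding splicing regulator (24.0% late and 66.9% early), and Reln, the secreted protein that guides neuron layering (16.7% late and 58.3% early), were lower by over 40 points. In the opposite direction, after the Tmem267 tile, came Bcl7a, a subunit of chromatin remodelling complexes, with 45.6% in late and 9.85% in early cells. Arid5b, a chromatin cofactor, had 55.6% in late and 20.6% in early cells, Hspbp1, a co-chaperone of Hsp70, 78.6% in late and 44.0% in early cells, and Incenp, a subunit of the chromosomal passenger complex, 57.7% in late and 25% in early cells. Each of these 8 tiles holds 3 or 4 CpGs.

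On average, lower and higher tiles had more methylation in the other early stem cells than tiles in general. Over all 35541 tiles the mean was 59.0% in early diploid cells and 57.4% in early ahESCs. Both libraries were among the 10 that could bring a site in, so the choice of sites could raise these levels. The 1250 lower tiles averaged 24.2% in late and 55.2% in early phESCs, 39.7% in late and 73.8% in early ahESCs, and 37.8% in late and 74.3% in early diploid cells. The 95 higher tiles averaged 55.6% in late and 22.7% in early phESCs, 27.8% in late and 72.6% in early ahESCs, and 19.2% in late and 76.2% in early diploid cells. All 80 of the higher tiles with both diploid values, and all 74 with both ahESC values, were lower in the late library of those cells, as were 96.7% of all tiles in diploid cells and 92.3% in ahESCs. Over all 35541 tiles the late minus early difference was -35.2 points in diploid cells and -27.7 points in ahESCs.

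A group of 29 lower tiles had under 10% in early diploid cells. They averaged 4.16% in late and 39.6% in early phESCs, and 27.6% in late and 5.10% in early diploid cells, and the late diploid library was among the 10 that could bring a site in. Late diploid cells were above early diploid cells in all 29, by 25 points or more in 9. Among all 3715 tiles with under 10% in early diploid cells, the late diploid mean was 3.59% and 12 tiles were higher by 25 points or more, the 9 among them. With sites that reached 20% in an embryo or brain library, so that no stem cell library chose them, there were 25 such tiles, all higher in late than in early diploid cells (27.5% late, 5.28% early). Of all 2828 tiles with under 10% in early diploid cells at such sites, 477 were higher in late diploid cells by any amount. By 25 points or more it was 7 of these 25, out of 9 among all 2828 tiles of that kind. In ahESCs the 29 tiles averaged 25.8% late and 15.3% early, and 19 of the 28 with both values were higher in the late library. Over all 3715 tiles ahESCs averaged 9.64% late and 6.10% early. Examples are a tile near Syde2 (chr3:145641001-145642000), with 5.86% in late and 59.1% in early phESCs, against 71.5% in late and 6.23% in early diploid cells, and a tile in Pgpep1l (chr7:75404001-75405000), with 7.17% in late and 40.5% in early phESCs, against 80.95% in late and 3.82% in early diploid cells. A tile 20704 bp from the start of Rbm20, which encodes a splicing regulator of heart muscle, had 6.64% in late and 56.2% in early phESCs, and 36.3% in late and 2.57% in early diploid cells. These 3 tiles and a tile of the Clcn4 promoter were among the 25, and tiles of the Fv1 and Miip promoter and of 2810429I04Rik were not.

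Promoters were measured for 1043 of 15178 genes with a placed start, from 1000 bp before to 500 bp after it, over at least 6 shared cytosines that reached 20% in another library. Of the others, 12597 had 6 shared cytosines but fewer than 6 that reached 20%, and 1538 had fewer than 6 shared cytosines. The median was 8.55% in late and 9.98% in early cells, with a median difference of -1.49 points, and 649 promoters were lower and 394 higher by any amount. In late cells 15 promoters were lower by at least 25 points (1.44%) and 2 were higher (0.192%).

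The widest gap was at Clcn4, a chloride and proton exchanger gene (chr7:7251017-7252517, mm9), with 2.46% in late and 51.5% in early phESCs over 13 cytosines. All 13 were lower in the late library, with a median of 0% and a highest value of 11.9% there, against a lowest value of 15.8%, a median of 52.9% and a highest value of 76.0% in the early library. The cytosine at 15.8% lies 1176 bp after the RefSeq start, and had 10.7% in the late library. The measured CpGs shown in capitals for Clcn4 were at 0 to 11.9% in late and 31.2 to 76.0% in early phESCs. The CpGs at 11.9% in late and at 76.0% in early phESCs (positions -82 and -122) lie in CCGG. In late and early diploid cells this promoter had 30.9% and 5.79%, and in late and early ahESCs 19.4% and 19.7%.

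Fv1, which restricts murine leukaemia viruses, and Miip, which lies head to head with it, share 21 measured cytosines on chromosome 4 (chr4:147242088-147243588 for Fv1). Their mean was 1.21% in late and 35.6% in early phESCs. All 21 cytosines were lower in the late library, at 0 to 6.25%, against early values of 16.8 to 61.6%. Among exonic CpGs that reached 20% elsewhere, 63.5% were lower in the late library. The promoters named here were picked for large differences, and neighbouring cytosines can share fragments, so such counts are not separate observations. The WT embryo had 0.530% at the Fv1 and Miip promoter, early ahESCs 2.01% and early diploid cells 0.557%. Late diploid cells had 32.2%, but 20 of the 21 cytosines entered only because that library reached 20% there, so its high level was fixed by the choice of sites. In the Fv1 sequence above, the CpG at position -190 from the start had 0% in late and 55.8% in early phESCs, and that at -112 had 0% in both.

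Tmem267, which encodes a transmembrane protein, and 3110070M22Rik share the promoter that was higher in late cells (chr13:120276667-120278167 for Tmem267). It had 55.7% in late and 15.3% in early phESCs over 20 cytosines, of which 19 were higher in late cells. The late values ran from 2.38% to 95.8% with a median of 65.0%, and the early values from 0% to 53.1% with a median of 11.6%, so the cytosines' ranges overlapped. Of the measured CpGs in the sequence, the 5 before the start had 9.09 to 38.6% in late and 0 to 32.7% in early phESCs, and the 7 after it had 50.1 to 94.7% in late and 0 to 28.3% in early phESCs. The CpG at position 32 gave both the 94.7% and the 0% after the start, and it lies in CCGG. Late ahESCs had 7.34% and late diploid cells 3.24% over the promoter, whereas the WT embryo had 80.8%. At the CpG at position -140 from the start, early ahESCs had 79.7% and early diploid cells 86.8%, against 38.6% in late and 16.2% in early phESCs.

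**Figure D3:**
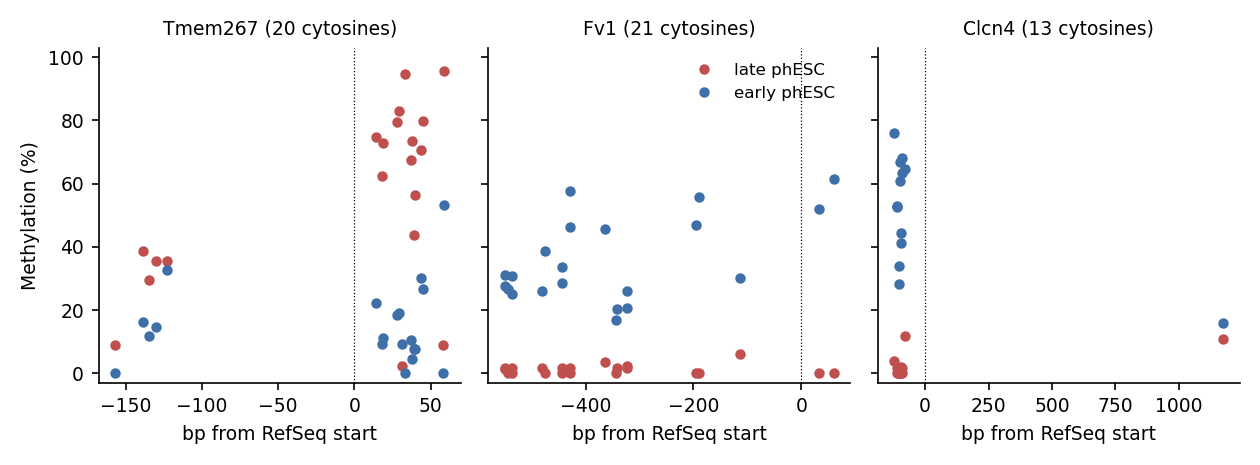
Methylation (%, vertical axis) of each shared cytosine that reached 20% elsewhere, by distance in bp from the RefSeq start (horizontal axis, dotted line at the start), at Tmem267, Fv1 and Clcn4 in late (red) and early (blue) phESCs. Late values lie above early ones at 19 of 20 cytosines of Tmem267, and below them at all 21 of Fv1 and all 13 of Clcn4.

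The other lower promoters had 6 to 8 cytosines, except that of the noncoding gene 2810429I04Rik with 21. There the mean was 4.61% in late and 29.8% in early cells, and all 21 cytosines were lower. Taar4, an olfactory trace amine receptor gene, had 23.3% in late and 66.3% in early cells. Col6a5, a collagen VI chain, had 9.02% in late and 49.6% in early cells. Ms4a6d, a membrane protein gene of myeloid cells, had 26.2% in late and 60.6% in early cells. Prss42, a testis serine protease gene, had 12.7% in late and 42.6% in early cells, and Pnliprp2, a pancreatic lipase relative, had 4.41% in late and 31.9% in early cells. Olfml1 had 4.08% in late and 31.4% in early cells, and Tsen15, a subunit of the tRNA splicing endonuclease, had 21.7% in late and 48.9% in early cells. The other 4 were the uncharacterised 4930505M18Rik, 4930594O21Rik, 4933414I15Rik and AC141429.1, at 7.89 to 31.8% in late and 33.6 to 65.5% in early cells. Just short of 25 points were 1700018B24Rik, with 20.4% in late and 44.3% in early cells, and Spsb3, a SOCS box gene, with 31.5% in late and 8.66% in early cells. Among promoters with at least 10 cytosines, Eng, which encodes the TGF-beta co-receptor endoglin, was next in the higher direction, with 20.5% in late and 2.99% in early cells.

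Germline genes, many of which are held silent by promoter methylation in somatic cells, had lower promoter levels in late cells with small differences. Of 40 listed genes 28 were placed and 20 measured, and 0 of the 20 passed 25 points, where 1.44% of all measured promoters did in the lower direction. Only Dpep3, Tdrd9, Tex101 and Asz1 stood at 25% or more in early cells, as did 238 of all 1043 measured promoters. The rest of the list could not have fallen by 25 points. The median of the list was 12.9% in late and 17.5% in early cells, with a median difference of -6.01 points. Over all measured promoters the median difference was -1.49 points, but their early median was 9.98%, so the sets were not matched in level. Of the 20, 19 were lower by any amount, as were 62.2% of all measured promoters. Dpep3, a testis dipeptidase, had 51.3% in late and 69.9% in early cells. Tdrd9, a helicase of the piRNA pathway, had 42.8% in late and 56.5% in early cells. Tex101, a germ cell surface protein, had 32.1% in late and 42.1% in early cells, and Asz1, also of the piRNA pathway, had 24.8% in late and 33.0% in early cells. Sycp3, a component of the synaptonemal complex, had 16.0% in late and 22.5% in early cells, and Tdrd1, a Tudor protein of the piRNA pathway, had 14.8% in late and 20.6% in early cells. Dazl, a germ cell RNA-binding protein, had 7.48% in late and 19.2% in early cells over 53 cytosines. The 1 higher member was Ddx4, the germ cell helicase Vasa, with 17.2% in late and 7.33% in early cells over 42 cytosines, where late diploid cells had 4.27% and early diploid cells 9.87%.

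**Figure D4:**
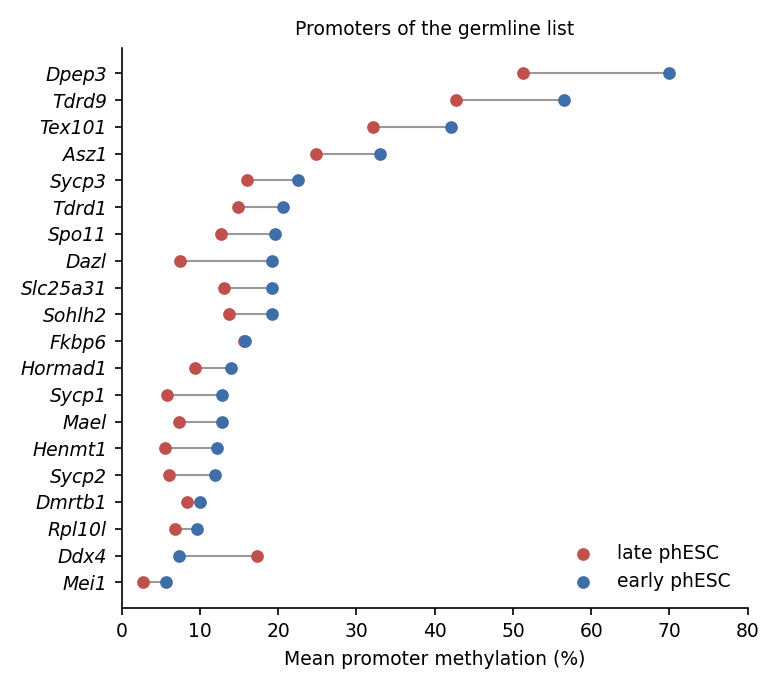
Mean promoter methylation (%, horizontal axis) of the 20 measured germline genes in late (red) and early (blue) phESCs, joined by a line for each gene. The late point is left of the early point for 19 genes, and Ddx4 is the exception with 17.2% in late and 7.33% in early cells.

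Few promoters of the other lists could be measured. Of the DNA methylation machinery, Dnmt3a had 7.26% in late and 6.61% in early cells, Tet3 13.03% in late and 11.3% in early cells, and Uhrf2 3.399% in late and 3.19% in early cells, with 13 of the 16 listed genes not measured. No promoter of the pluripotency, primed state and lineage, cell cycle or 2-cell lists was measured, so the pluripotent identity of the cells could not be checked from these data. Of markers of other cell types, 1 promoter of each list was measured. Twist2, of the fibroblast and feeder list, had 7.62% in late and 13.6% in early cells. Hand1, of the trophoblast list, had 7.16% in late and 10.2% in early cells. Gfap, the glial filament gene of the neural list, had 16.2% in late and 36.8% in early cells over 9 cytosines.

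Maternally methylated imprinted windows were nearly unmethylated at both passages. A genome of maternal origin that kept its imprints would be methylated there, so these windows do not show the maternal origin that the labels give. Of 22 listed windows 19 had at least 5 shared cytosines and 25 to 75% in the WT embryo, which carries a methylated and an unmethylated copy. Over the 19 the mean was 4.26% in late and 3.23% in early phESCs (SD over windows 2.81 and 7.20), against 54.7% in the WT embryo. The median window had 3.36% in late and 0.964% in early cells, and 15 windows were higher and 4 lower in late cells. None passed 25 points, where 3.52% of all tiles were lower and 0.267% higher by as much. Apart from Cdh15, every window was at 5.79% or less in early cells and could not have fallen by 25 points. The late diploid library had 2.32% and the early one 46.1% in the same windows, each over its own cytosines. In the 18 windows with values in both ahESC libraries, which leave out Cdh15, ahESCs had 5.43% late and 4.09% early.

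Cdh15 set the early mean apart. This window had 8.12% in late and 32.3% in early phESCs over 8 cytosines. Over each library's own cytosines it had 86.5% in early diploid cells, 82.5% in early ahESCs and 75.6% in the bipaternal embryo. Early ahESCs and the bipaternal embryo have no maternal genome, so methylation of this window was not limited to a maternal copy. Without it the mean over 18 windows was 4.05% in late and 1.62% in early phESCs, a difference of 2.43 points in place of 1.03 points. In these 18 windows 30.8% of 543 cytosines were above 5% in late and 11.2% in early cells, and 15.7% were at exactly 0% in late and 25.6% in early cells. All 3715 tiles under 10% in early diploid cells had 5.35% in late and 4.85% in early phESCs. Exonic CpGs under 20% elsewhere went the other way, with 0.594% in late and 0.793% in early cells. The late library also differed more between strands (4.77 against 3.06 points). Whether these shares, or the 15 higher windows, exceed noise at such low levels was not tested.

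The individual windows kept to these low levels. Mest had 11.3% in late and 0.964% in early cells over 9 cytosines. Peg13-Trappc9 had 7.94% in late and 0.747% in early cells over 25 cytosines. Peg3, which encodes a zinc finger protein, had 6.94% in late and 0.930% in early cells. Kcnq1ot1, the noncoding RNA that silences the Kcnq1 domain, had 4.45% in late and 0.441% in early cells. Grb10, a growth inhibiting adaptor gene and the window with the most cytosines (106), had 5.34% in late and 3.19% in early cells. Snrpn-Snurf, the control region of the Prader-Willi domain, had 0.395% in late and 0.231% in early cells, against 65.7% in the WT embryo. Igf2r-Airn had 2.06% in late and 1.39% in early cells, and Plagl1 2.19% in late and 0.551% in early cells. Lower in late cells besides Cdh15 were Slc38a4 (0.556% late, 4.61% early), Gnas-XL (5.11% late, 5.79% early) and Inpp5f (1.57% late, 1.78% early). Nespas had 3 shared cytosines, all at 0% in both, and Ndn had none. Gpr1-Zdbf2, at 94.1% in the WT embryo and so outside the imprinted range, had 6.64% in late and 0.239% in early phESCs.

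Paternally methylated windows could be read in only 3 cases. The H19 promoter had 1.43% in late and 6.82% in early cells over 5 cytosines, Nesp 4.56% in late and 0.847% in early cells, and Cdkn1c, a cell cycle inhibitor, 3.13% in late and 3.95% in early cells. Their mean was 3.04% in late and 3.87% in early cells, a difference of -0.84 points. The Meg3 promoter had 4 shared cytosines, the Dlk1-Dio3 control region 1, and the H19-Igf2 and Rasgrf1 control regions none, so the germline marks of the paternal copy could not be compared between the passages.

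**Figure D5:**
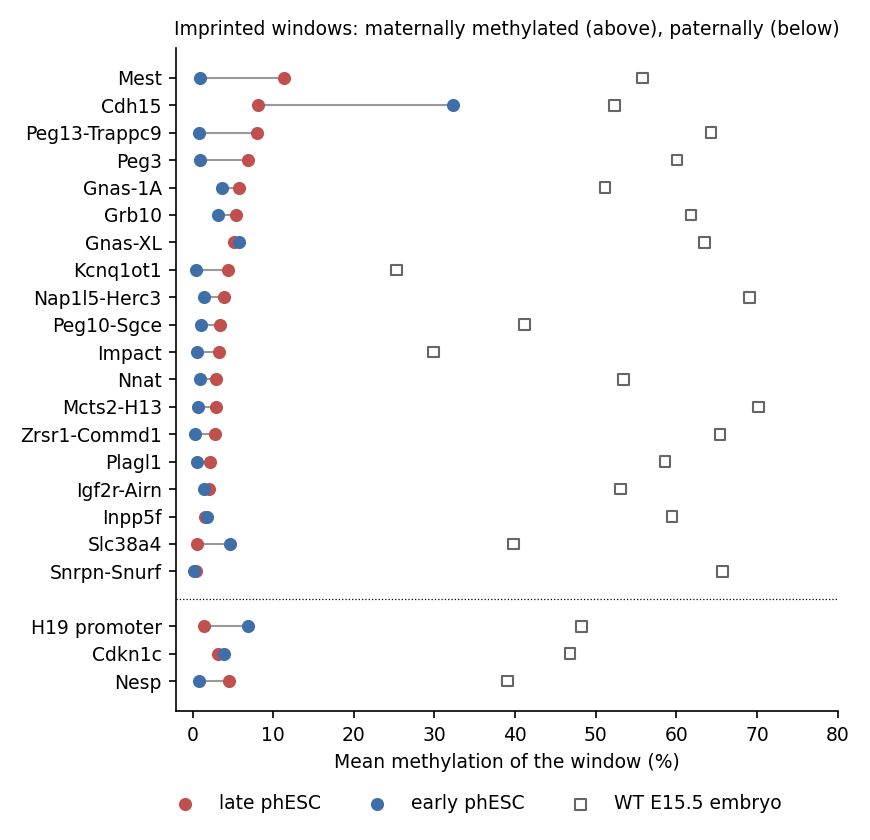
Mean methylation (%, horizontal axis) of 19 maternally methylated windows (above the dotted line) and 3 paternally methylated windows (below it) in late (red circles) and early (blue circles) phESCs, with the WT E15.5 embryo (open squares). All phESC points but the early Cdh15 point at 32.3% lie at or under 11.3%, left of every embryo square.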

How the data were processed

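The deposited file gives, for each listed cytosine of the 12 libraries, a methylation value in percent (a score from 0 to 100, with N where missing) computed by the authors. Per the submitters' processing notes, the tools were Bismark 0.13.1 and Trim Galore and the build was mm9. Strand, sequence context and coverage are not given in the sources used here, and positions are mm9.

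Context and gene starts came from matching exon sequences of GENCODE M21 and RefSeq promoter sequences to the pattern of listed positions, without converting coordinates. Of 456578 segments 95676 were placed (at least 8 listed positions, no mismatch), against 56 at a false shift of 2017 bp. Context became known at 34.3% of listed autosomal positions, with 294 conflicts dropped. Where promoters or windows run beyond a matched segment, the same order in mm9 is assumed. Of cytosines of known context that reached 20%, 98.7% were CpG.

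Exonic CpGs are means of both strands outside CCGG. Promoters and the printed sequences kept CpGs in CCGG. Tiles needed 3 sites, promoters 6 and windows 5. Calls used a limit of 25 points either way. Windows used cytosines that reached 20% outside the pair. The text names windows, list members, promoters past 25 points and the largest differences, by a written rule. Members and lists were chosen with earlier results of these data known. Tile calling was tested on simulated data. Tables were made with pandas 2.3.3 and NumPy 2.4.6 under Python 3.11.15, and figures with Matplotlib 3.10.9.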

Additional observations from a re-analysis of the deposited data

Results flagged for a closer look

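Several sequences moved one way between the passages of phESCs and the other way between the passages of another cell type, and with 1 library per group none of these differences was tested. The Clcn4 promoter was lower in late phESCs (2.46% late, 51.5% early), while its late minus early difference in diploid cells was 25.2 points. The shared Fv1 and Miip promoter was lower in late phESCs (1.21% late, 35.6% early), with a diploid difference of 31.7 points, but 20 of its 21 cytosines entered only because late diploid cells reached 20% there, which fixed this direction. The 2810429I04Rik promoter was also lower in late phESCs (4.61% late, 29.8% early), with a diploid difference of 15.05 points. So was that of Col6a5 (9.02% late, 49.6% early), with a diploid difference of 11.5 points. Unlike at Fv1, 0 cytosines of either promoter entered through late diploid cells alone.

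The 19 maternally methylated windows differed by 1.03 points in phESCs, over shared cytosines, and by -43.8 points in diploid cells, over each library's own cytosines. Without Cdh15 the early phESC mean was 1.62%, so these windows had little methylation to lose in phESCs. The 95 tiles that were higher in late phESCs differed in the opposite direction in both other cell types, with mean differences of -56.6 points in diploid cells and -46.2 points in ahESCs. That direction was general, as 96.7% of all tiles were lower in late diploid cells and 92.3% in late ahESCs. The mean differences over all tiles were -35.2 points in diploid cells and -27.7 points in ahESCs.

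Outside the autosomes, the late phESC library had values at 654 cytosines of chromosome Y, against 97 in the early library, and at 2348 cytosines of unplaced chromosome Y sequence, against 0 in the early library. Late ahESCs had 1161 and 4124 such cytosines, the bimaternal adult brain 890 and 2209, and the WT adult brain 2246 and 7697, while the other 8 libraries had 0 on the unplaced sequence.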

How the results depend on the processing

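Over 14 results, 57 alternative values were computed: 30 stayed within 1 point or 1.5 times of the reported value, 26 moved further and 1 changed sign. Counts followed the threshold. At 15 points there were 944 lower and 122 higher exonic tiles, 5983 lower and 517 higher tiles over all cytosines, and 76 lower and 4 higher promoters. At 40 points these were 13 and 1, 115 and 12, and 3 lower promoters. With at least 10 sites there were 4 lower and 0 higher exonic tiles, 129 lower and 4 higher tiles over all cytosines, and 4 lower promoters. Site medians gave 153 higher tiles over all cytosines, and promoters over placed sequence alone gave 8 lower and 0 higher. Lower tiles outnumbered higher ones at each of these settings.

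The maternal window difference was 0.266 points with medians of cytosines, 0.773 points over each library's own positions, 2.09 points with at least 10 cytosines and 2.43 points without Cdh15, which was chosen after seeing the data. The paternal difference turned to 1.44 points with at least 10 cytosines, which leaves out the H19 promoter, and was -5.96 points over each library's own positions. At CpGs that reached 50%, ahESCs differed by -28.6 and diploid cells by -36.0 points; with CCGG sites these were -23.3 and -30.2 points. The phESC mean differences and the germline median stayed within 1 point.

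No paired analysis was possible because each group holds 1 library. Depth is unknown, no interval was computed, and the late and early libraries were read at different sets of sites.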
